A study of Mus musculus with 4 samples.

Results

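Amino acid and peptide transporters were compared between spheroids and organoids grown from the same mouse small intestine. The group comprises every named gene of 9 solute carrier families, Slc1a, Slc3a, Slc6a, Slc7a, Slc15a, Slc16a, Slc36a, Slc38a and Slc43a, taken by symbol. The families were chosen with earlier results of these data known. It holds 72 of the 15123 named genes on the array, read by 106 probes. The families are broader than the name: Slc16a holds mostly carriers of lactate and related acids, and part of Slc6a takes up neurotransmitters, taurine or creatine.

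The cultures came from CD1 wild-type animals, 1 small intestine at a time, and grew in Matrigel, with medium holding 2 mM L-glutamine, 2% serum, EGF (50 ng/ml), Noggin (100 ng/ml) and R-spondin1 (500 ng/ml), per the labels. Spheroids are hollow cysts and organoids are budding forms with crypt-like domains; each form was picked from every animal's culture and replated for 3 passages. RNA of both forms of 1 animal was hybridised together to 70-base oligonucleotide arrays with the dyes swapped, which gave 1 ratio per probe and animal. There were 4 such pairs: 2 from embryonic day 16 (E16), 1 from embryonic day 18 (E18) and 1 from postnatal day 0 (P0). Each pair is 1 animal's cultures, so E18 and P0 have no replicate of their own. Every ratio below is read as a log2 ratio, a base that no label states and on which the fold values depend. A positive value is read as higher in spheroids. That direction is likely and not stated by any label; it rests on the titles and the first channel, which name the spheroid first. The columns had medians between -0.0035 and 0.003 over genes. No intensity was used here, so brightness over background is unknown and the number of arrays limits the precision.

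Absorptive enterocytes take amino acids and small peptides from the gut lumen through brush border carriers and pass them to the blood through carriers of the basolateral membrane. Several of these carriers are heteromers: a heavy chain, Slc3a1 or Slc3a2, brings a light chain of the Slc7a family to the membrane. Dividing cells use a partly different set, among them Slc7a5 with Slc3a2, to supply growth and to inform the mTORC1 kinase of the amino acid supply. The arrays measured the ratio of RNA between the culture forms, and neither protein nor transport. In bulk RNA, fewer cells of a type and less RNA per cell cannot be told apart.

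Promoter letters are shown for 6 transporters on which the results turn. Of these, 3 passed the test over all pairs (Slc16a12, Slc16a10 and Slc3a2). The other 3 are chains of epithelial exchangers with ratios far below 0 at E16 (Slc3a1, Slc7a9 and Slc7a7). Slc6a20a, which was lower at E16 than Slc7a9 and Slc7a7, is not shown. Each window shown is the 250 bases before the first start listed by RefSeq on GRCm38.p6, 5′ to 3′, with motif matches in capitals. Slc16a12 lies at chr19:34747329-34747578 on the minus strand, Slc16a10 at chr10:40142255-40142504 on the minus strand and Slc3a2 at chr19:8713898-8714147 on the minus strand. Slc3a1 lies at chr17:85028097-85028346 on the plus strand, Slc7a9 at chr7:35448842-35449091 on the plus strand and Slc7a7 at chr14:54417945-54418194 on the minus strand.
Slc16a12: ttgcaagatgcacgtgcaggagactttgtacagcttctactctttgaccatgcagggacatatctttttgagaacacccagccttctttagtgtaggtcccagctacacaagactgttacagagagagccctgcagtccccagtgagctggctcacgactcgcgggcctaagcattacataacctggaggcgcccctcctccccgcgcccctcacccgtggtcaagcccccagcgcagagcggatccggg
Slc16a10: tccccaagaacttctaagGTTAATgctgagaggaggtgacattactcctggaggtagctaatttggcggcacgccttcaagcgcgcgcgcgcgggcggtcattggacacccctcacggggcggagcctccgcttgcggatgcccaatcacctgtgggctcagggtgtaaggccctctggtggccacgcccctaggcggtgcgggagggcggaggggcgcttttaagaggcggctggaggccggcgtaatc
Slc3a2: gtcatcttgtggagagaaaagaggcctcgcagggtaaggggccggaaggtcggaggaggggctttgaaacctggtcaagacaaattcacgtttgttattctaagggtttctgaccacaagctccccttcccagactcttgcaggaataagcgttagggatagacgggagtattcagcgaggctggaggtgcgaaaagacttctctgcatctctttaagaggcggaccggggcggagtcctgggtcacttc
Slc3a1: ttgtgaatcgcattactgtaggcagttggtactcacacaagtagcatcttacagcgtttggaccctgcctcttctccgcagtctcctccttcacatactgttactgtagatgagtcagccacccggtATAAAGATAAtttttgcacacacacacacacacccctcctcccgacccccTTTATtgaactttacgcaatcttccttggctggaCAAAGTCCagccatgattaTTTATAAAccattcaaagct
Slc7a9: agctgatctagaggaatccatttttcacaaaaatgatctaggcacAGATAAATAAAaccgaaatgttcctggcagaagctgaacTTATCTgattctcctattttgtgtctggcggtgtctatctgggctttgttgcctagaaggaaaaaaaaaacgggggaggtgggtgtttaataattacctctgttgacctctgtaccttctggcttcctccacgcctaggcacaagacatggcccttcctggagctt
Slc7a7: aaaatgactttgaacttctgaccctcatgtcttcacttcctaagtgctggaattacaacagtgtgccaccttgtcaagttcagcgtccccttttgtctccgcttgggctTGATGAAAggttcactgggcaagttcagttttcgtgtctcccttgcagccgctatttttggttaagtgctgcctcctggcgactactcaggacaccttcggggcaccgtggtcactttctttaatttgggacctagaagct

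Both strands were searched for 5 short motifs of gut or amino acid response factors, and matches of different motifs may overlap. The CDX letters TTTAT were found in Slc3a1 and Slc7a9 among the 6, in 12 of the 52 transporter promoters that RefSeq's table held and in 38.1% of all 27025 promoters. The GATA letters AGATAA were found in the same 2 of the 6, in 3 of the 52 transporter promoters (5.77%) and in 10.3% of all promoters. In Slc3a1 the AGATAA match begins at -119, and the HNF4 letters CAAAGTCC begin at -39 from the start. CAAAGTCC was found in 1 of the 52 transporter promoters and in 1.22% of all promoters. The HNF1 letters GTTAAT were found in Slc16a10, in 4 of the 52 transporter promoters and in 6.52% of all promoters. The letters TGATGNAA of the ATF4 composite element were found in Slc7a7, in 2 of the 52 transporter promoters and in 3.53% of all promoters. None of the 5 motifs was found in the Slc16a12 and Slc3a2 windows, which says only that these letters are not there. A match is a description of the letters and not a binding site.

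Over all 4 pairs, 3 of the 72 transporters passed the test and all 3 were lower in spheroids: Slc16a12, Slc16a10 and Slc3a2. The test was limma's moderated test of the mean ratio against 0, and its p-values were adjusted by Benjamini-Hochberg across the 15123 genes, with 0.05 as the threshold. Of all genes, 4.36% passed, 1.34% as lower and 3.02% as higher in spheroids; of the transporters, 4.17% passed. No transporter passed as higher, while 17 of the 72 had an unadjusted p under 0.05, against 20.9% of all genes. The median ratio of the 72 was -0.025, beside -0.0033 for all genes. A mean below -0.5 was found for 11 transporters (15.3%, against 5.42% of all genes) and one above 0.5 for 1 transporter (1.39%, against 5.52%). The ratio was below 0 in all 4 pairs for 18 transporters (25%, against 14.4% of all genes) and above 0 in all 4 for 5 (6.94%, against 16.3%). The means of 37 transporters (51.4%) lay within the range of the 94 negative control probes, from -0.16 to 0.071. So did those of 8612 of the 15123 genes. A mean in that range can also come from larger ratios of opposite sign, as for Slc7a5 and Slc6a8 below.

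**Figure D1:**
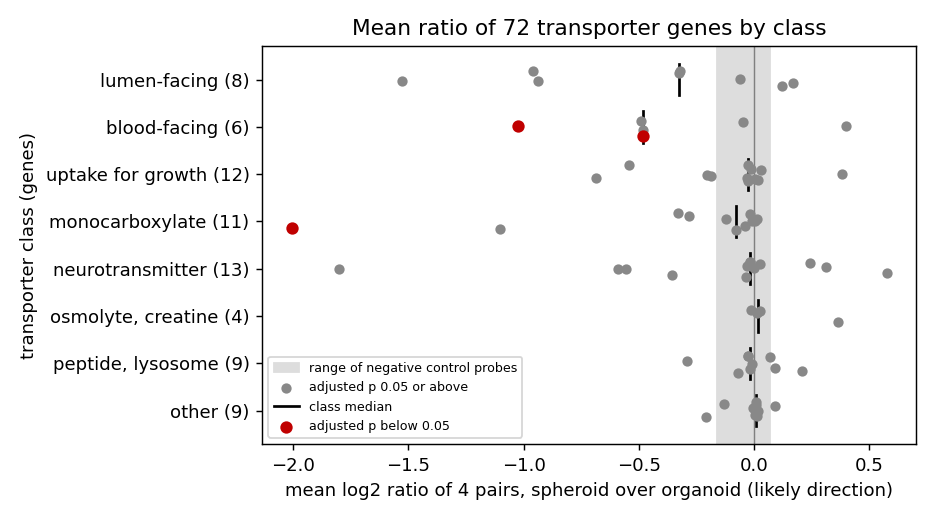
Mean log2 ratio of the 4 pairs (horizontal axis, spheroid over organoid in the likely direction) of each of the 72 transporter genes (points), by class with the number of genes in brackets; black bars are class medians, red points passed with an adjusted p below 0.05, and the grey band spans the means of the negative control probes. The 3 red points, Slc16a12, Slc16a10 and Slc3a2, all lie below 0, and the lumen-facing and blood-facing classes have the lowest medians, -0.32 and -0.48.

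Slc16a12 (Entrez gene 240638), a monocarboxylate carrier family member whose human form carries creatine, had the lowest mean of all 72. Its ratios were -2.23 and -1.70 in the E16 pairs, -1.56 in the E18 pair and -2.53 in the P0 pair. All 4 pairs lay well below 0, and the E16 values lay among the later ones. The mean was -2.01 ± 0.45 (SD, n = 4), or 4.02-fold lower in spheroids, with a limma adjusted p of 0.0254. Slc16a10 (Entrez gene 72472) carries tryptophan, tyrosine and phenylalanine across the basolateral membrane. Its ratios were -0.91 and -0.81 at E16, -1.08 at E18 and -1.29 at P0, so both E16 values were the smaller in size. The mean was -1.02 ± 0.21 (SD, n = 4), or 2.03-fold lower, with a limma adjusted p of 0.0235. Its 2 probes had means of -1.30 and -0.75, the same direction at different sizes. The order by stage came from the probe with the mean of -0.75, at -0.37 and -0.51 at E16, -0.92 at E18 and -1.19 at P0. The other probe did not show it, at -1.45 and -1.12 at E16, -1.25 at E18 and -1.39 at P0.

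Slc3a2 (Entrez gene 17254) encodes the heavy chain shared by Slc7a5, Slc7a6, Slc7a7, Slc7a8 and Slc7a11. Its ratios were -0.33 and -0.52 at E16, -0.63 at E18 and -0.45 at P0, a narrow range entirely below 0. The mean was -0.48 ± 0.13 (SD, n = 4), or 1.40-fold lower, with a limma adjusted p of 0.0368, and its probes had means of -0.44 and -0.53. These 3 calls need the full set of pairs: 0 transporters passed in limma without the P0 pair, without the first E16 pair or without the second (before adjustment, 12, 15 and 11 had a p under 0.05). Of all genes, 0.959%, 0.0132% and 0% passed in these fits, so without the second E16 pair every call named here over all 4 pairs was lost, those of other gene lists included. The means moved less: over the fits without 1 pair that of Slc16a12 ran from -2.15 to -1.83, that of Slc16a10 from -1.09 to -0.93 and that of Slc3a2 from -0.54 to -0.43. Without the E18 pair Slc16a12 passed and the other two did not, while Slc6a20a and Slc6a4 did. The E16 pairs correlated at 0.939 over the 72 transporters (0.916 over all genes, which are not independent), and with both averaged to 1 value 0 transporters passed (13 at an unadjusted p under 0.05). With array weights, which favour the E16 pairs, 9 passed (12.5%, against 9.37% of all genes). With 4 pairs, an exact sign-flip test of 1 gene cannot go below a two-sided p of 0.125.

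Among the 8 measured lumen-facing transporters, 0 passed in limma over all pairs, and their median was -0.32. At an unadjusted limma p under 0.05 were 2 of the 8, against 20.9% of all genes. The cystine and dibasic amino acid exchanger, whose heavy chain is Slc3a1 and whose light chain is Slc7a9, showed the same pattern in both chains. Slc3a1 had ratios of -2.09 and -2.42 at E16, 0.70 at E18 and -0.020 at P0. Slc7a9 had ratios of -1.83 and -1.998 at E16, 0.69 at E18 and -0.60 at P0. In both genes the E16 pairs lay far below 0 and the E18 pair above it. Their means, -0.96 ± 1.53 and -0.94 ± 1.25 (SD, n = 4), were smaller than their spread, with limma adjusted p of 0.514 and 0.432. Both probes of Slc7a9 had this pattern, with means of -0.89 and -0.98.

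Slc6a20a, a sodium-coupled carrier of proline and related imino acids, had ratios of -2.33 and -2.14 at E16, -0.23 at E18 and -1.41 at P0. All 4 were below 0, with the E18 value nearest to it, and the mean of -1.53 ± 0.95 (SD, n = 4) had a limma adjusted p of 0.143. Its neighbour on chromosome 9, the near copy Slc6a20b, had ratios of -1.35 and -0.23 at E16, 0.40 at E18 and -0.13 at P0. The 2 genes are alike in sequence, so a probe may read both, and their ratios are uncertain on that account. Slc1a1, a glutamate and aspartate carrier, ran the other way between stages, at -0.030 and -0.14 at E16 against -0.50 at E18 and -0.62 at P0. The peptide carrier Slc15a1, at -0.13 and -0.12 at E16, 0.082 at E18 and -0.076 at P0, stayed near 0 in every pair. Its mean lay within the negative control range, so an unchanged carrier and a probe without signal cannot be told apart. The proton-coupled carrier Slc36a1 lay between 0.062 and 0.22 and the broad carrier Slc6a14 between -0.18 and 0.56. Slc6a19, the main neutral amino acid carrier of the brush border, was not analysed here.

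**Figure D2:**
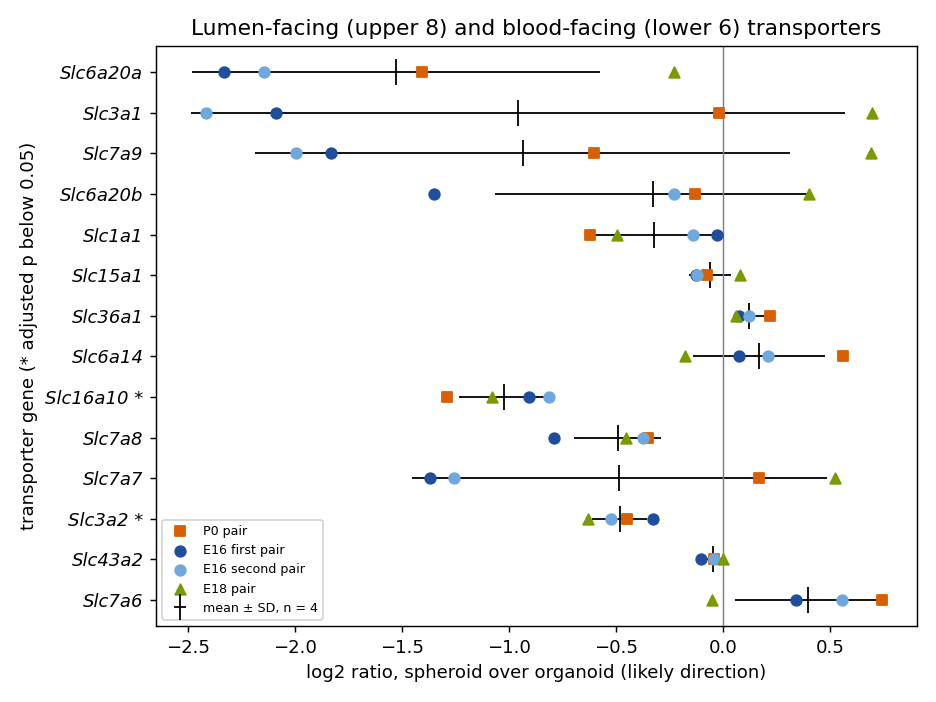
Log2 ratio (horizontal axis, spheroid over organoid in the likely direction) in each of the 4 pairs (coloured symbols) for the 8 lumen-facing and 6 blood-facing transporters, with the mean and SD (black, n = 4); an asterisk marks an adjusted p below 0.05. In Slc3a1, Slc7a9 and Slc7a7 both E16 pairs lie below -1 and the E18 pair above 0.5, while Slc16a10 and Slc3a2 lie below 0 in all pairs.

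Of the 6 measured blood-facing transporters, Slc16a10 and Slc3a2 passed lower, where 1.34% of all genes did, and the median was -0.48. Slc3a2 is counted here although it also serves Slc7a5, which is placed among the carriers of uptake for growth. Slc7a7, the light chain that exports dibasic amino acids to the blood, had ratios of -1.37 and -1.26 at E16, 0.52 at E18 and 0.17 at P0. Its E16 pairs lay below 0 and both later pairs above it, and the mean of -0.48 ± 0.97 (SD, n = 4) had a limma adjusted p of 0.614. Both of its probes gave that split, with means of -0.46 and -0.51. Slc7a8, the light chain that exchanges neutral amino acids, was below 0 in 4 of 4 pairs, at -0.79 and -0.37 at E16, -0.45 at E18 and -0.35 at P0. Its mean of -0.49 ± 0.20 (SD, n = 4) missed the threshold with a limma adjusted p of 0.0745, and its probes disagreed, with means of -0.073 and -0.91. Slc7a6 ranged from -0.050 at E18 to 0.74 at P0, and the uniporter Slc43a2 from -0.10 to 0.0020. The mean of Slc43a2 lay in the negative control range.

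Of 16 measured markers of absorptive enterocytes, the glucose carrier Slc5a1 passed lower at -2.40 ± 0.58 (SD, n = 4; limma adjusted p = 0.0288) and 0 passed higher. Of all genes, 1.34% passed lower and 3.02% higher. The median of the 16 was -2.27 and -2.63 in the E16 pairs, 0.41 in the E18 pair and -0.72 in the P0 pair. The lumen-facing carriers had medians of -0.74 and -0.18 in the E16 pairs, 0.072 in the E18 pair and -0.10 in the P0 pair. Marker means ranged from -2.40 to -0.28, and 14 of 16 had both E16 pairs below both later pairs, where 25.9% of all genes did. Of the lumen-facing carriers 5 of 8 did, and 1 of 8, Slc1a1, had both above. No marker and no carrier passed in limma's comparison of E16 with the later pairs. The part of enterocyte content in the transporter ratios was not tested.

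**Figure D3:**
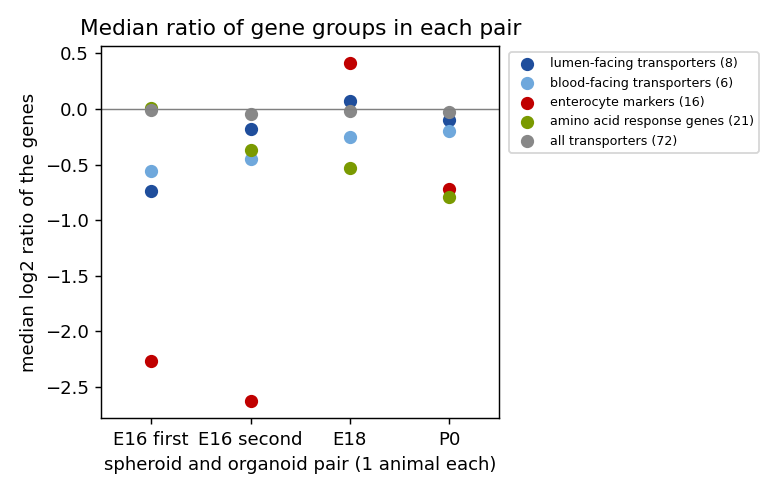
Median log2 ratio (vertical axis) of 5 gene groups in each pair (horizontal axis, 1 animal each), with the number of genes in brackets. Enterocyte markers lie at -2.27 and -2.63 in the E16 pairs and at 0.41 in the E18 pair, and amino acid response genes at 0.0090 and -0.37 at E16, -0.53 at E18 and -0.80 at P0.

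Of the 12 carriers of widespread uptake for growth, 0 passed in limma over all pairs and the median was -0.026. At an unadjusted limma p under 0.05 were 2 of the 12, against 20.9% of all genes. Slc7a5, the light chain that brings in leucine and other large neutral amino acids, had ratios of 0.96 and 0.66 at E16, -1.12 at E18 and -0.38 at P0. It was above 0 in both E16 pairs and below in both later ones, and the mean of 0.029 ± 0.96 (SD, n = 4) had a limma adjusted p of 0.981. Slc1a4, a carrier of alanine, serine and cysteine, had ratios of -0.14 and -0.31 at E16, -1.15 at E18 and -1.14 at P0, all below 0. Slc7a3, a carrier of cationic amino acids, lay near 0 at E16 (0.0053 and -0.012) and at -1.02 and -1.14 at E18 and P0. Its 2 probes had means of -0.030 and -1.06, the widest gap among the 28 transporters with several probes, so the later values rest on 1 probe. Slc7a11, the cystine and glutamate exchanger that feeds glutathione synthesis, was above 0 in 4 of 4 pairs, from 0.22 to 0.68, with a mean of 0.38 ± 0.20 (SD, n = 4) and a limma adjusted p of 0.115. Slc1a5, a glutamine carrier, ranged from -0.48 to 0.34, and Slc38a2, which takes up small neutral amino acids, from -1.01 at E18 to 0.22.

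Among the 11 other monocarboxylate family genes, Slc16a12 was the sole call, where 1.34% of all genes passed lower, and the median was -0.080. Slc16a3, which exports lactate from glycolytic cells, had ratios of -1.67 and -2.06 at E16, -0.12 at E18 and -0.56 at P0. All 4 lay below 0, with the E16 values far the lower, and the mean of -1.10 ± 0.91 (SD, n = 4) had a limma adjusted p of 0.231. Slc16a1, the widespread lactate carrier, stayed between -0.11 and 0.10, with a mean in the negative control range. Bsg, the chaperone that brings Slc16a1 and Slc16a3 to the membrane, ran from -0.31 to 0.50, and Cd44, a cell surface receptor that binds Slc7a11, passed higher at 0.79 ± 0.10 (SD, n = 4; limma adjusted p = 0.0151). Slc16a6 had ratios of 0.38 and -0.047 at E16, -0.74 at E18 and -0.72 at P0.

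Of the 13 neurotransmitter carriers, 0 passed in limma over all pairs, and 6 had means within the negative control range. At an unadjusted limma p under 0.05 were 4 of the 13, against 20.9% of all genes. Slc6a4, the serotonin carrier, which gut epithelium also uses, had ratios of -1.82 and -1.94 at E16, -0.80 at E18 and -2.65 at P0. All were below 0, and the mean of -1.80 ± 0.76 (SD, n = 4), 3.49-fold lower, missed the threshold with a limma adjusted p of 0.0729. Slc6a3, the dopamine carrier, had ratios of -1.47 and -1.08 at E16 but 0.11 at E18 and 0.080 at P0. Slc1a3, a glutamate carrier known from glia, ranged from -0.88 to -0.25, with a mean of -0.56 ± 0.32 (SD, n = 4). Slc6a17, a vesicular carrier of neutral amino acids in neurons, had the highest mean of all 72, at 0.58 ± 0.30 (SD, n = 4; limma adjusted p = 0.108), with values of 0.46 and 0.57 at E16, 0.28 at E18 and 0.99 at P0. Of 7 measured neural markers 0 passed in limma, also at an unadjusted p under 0.05, and the median was 0.013, with means from -0.32 to 0.075. Of 12 mesenchyme markers 0 passed either at both thresholds, and 11 lay in the negative control range. Of 6 leukocyte markers the lysozyme Lyz2, a near copy of the Paneth cell gene Lyz1, alone passed, where 1.34% of all genes passed lower. Lyz2 stood at -1.71 ± 0.35 (SD, n = 4), with a limma adjusted p of 0.0232, and the other 5 lay in the negative control range.

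**Figure D4:**
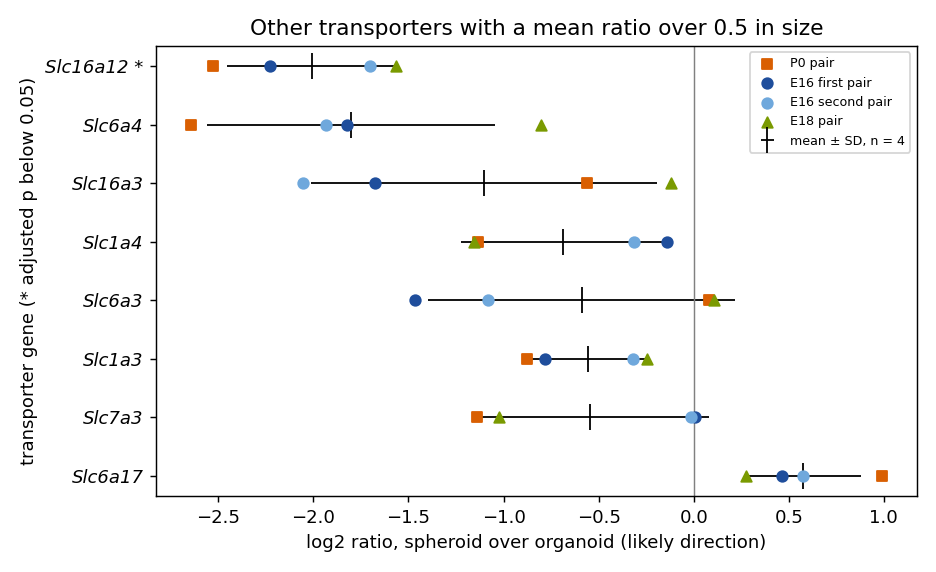
Log2 ratio (horizontal axis, spheroid over organoid in the likely direction) in each pair (coloured symbols) for the 8 transporters outside the epithelial classes with a mean over 0.5 in size, with the mean and SD (black, n = 4); an asterisk marks an adjusted p below 0.05. Slc16a12 and Slc6a4 lie below -0.5 in all pairs, while Slc7a3 lies near 0 in both E16 pairs.

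The 4 taurine, betaine, GABA and creatine carriers had 0 calls in limma, also at an unadjusted p under 0.05. Slc6a6, which takes up taurine, was at -0.21 and -0.030 at E16, 0.71 at E18 and 0.99 at P0. Slc6a8, which takes up creatine, was at -0.44 and -0.77 at E16, 0.78 at E18 and 0.38 at P0. Both were below 0 in the E16 pairs and above 0 in the later pairs. The 9 other peptide and lysosomal carriers had means from -0.29 (Slc38a9) to 0.21 (Slc15a3), with 5 in the negative control range, and the 9 remaining members from -0.21 to 0.090, with 7 in it. The probes of Slc15a3 had means of -0.036, 0.0225 and 0.64, so its value rests on 1 probe. Among other members next to each other in the genome, Slc16a13 stood at -0.33 and Slc16a11 at -0.039. The neighbours Slc6a13 and Slc6a12 (0.026 and 0.012) and Slc36a3 and Slc36a2 (-0.0091 and -0.027) all lay in the negative control range, so their closeness is closeness to 0. Slc36a1, next to Slc36a2, stood at 0.12, and Slc38a1, Slc38a2 and Slc38a4, in that order, at -0.027, -0.19 and 0.0060.

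The stage comparison asked whether the ratio of spheroid to organoid at E16 (2 pairs) differed from that at E18 and P0 (1 pair each). In limma, 0 of the 72 transporters and 0% of all genes passed, with a smallest adjusted p of 0.0829 over all genes and of 0.0915 among transporters; 18 transporters had an unadjusted p under 0.05, against 19.1% of all genes. The transporters with the largest moderated statistics lower at E16 were Slc7a7, Slc6a3, Slc3a1, Slc6a6 and Slc16a3. The difference of E16 minus later was -1.66 (SE 0.15) for Slc7a7, -1.37 (SE 0.16) for Slc6a3 and -2.59 (SE 0.31) for Slc3a1, with limma adjusted p from 0.0923 to 0.0926. It was -0.97 for Slc6a6 and -1.52 for Slc16a3, with limma adjusted p of 0.106 and 0.111. Those with the largest statistics higher at E16 were Slc7a3 at 1.08, Slc1a4 at 0.92, Slc1a1 at 0.47, Slc16a6 at 0.90 and Slc7a5 at 1.56. Their limma adjusted p ran from 0.0915 (Slc7a3) to 0.143 (Slc7a5). Both E16 pairs lay below both later pairs in 21 transporters (29.2%, against 25.9% of all genes) and above in 18 (25%, against 24.8%), so the split was about as common as elsewhere.

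Across the 72 transporters the correlations of the E18 pair with those of E16 were -0.024 and -0.014, where all genes gave 0.387 and 0.316. For the P0 pair the correlations were 0.567 and 0.574 with E16 (0.65 and 0.585 over all genes) and 0.67 with E18 (0.622 over all genes). Genes in 1 sample are not independent, so these are descriptions. Against the E18 pair alone, which limma then takes to vary as the E16 pairs do, 12 transporters passed (16.7%, against 10.2% of all genes). Lower at E16 than at E18 were 7 (5.64% of all genes were): Slc3a1, Slc7a9, Slc7a7, Slc6a20a, Slc16a3, Slc6a8 and Slc6a4. Higher at E16 were 5 (4.57% of all genes were): Slc7a5, Slc38a2, Slc7a3, Slc1a4 and Slc15a4, and the 12 had limma adjusted p from 0.0293 to 0.0482. Against the P0 pair alone, 4 passed (5.56%, against 2.93% of all genes): Slc3a1, Slc7a9 and Slc7a7 lower (1.83% of all genes) and Slc7a3 higher at E16 (1.1% of all genes), each with a limma adjusted p of 0.0492. Both comparisons rest on 1 later animal, so stage and animal cannot be told apart.

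**Figure D5:**
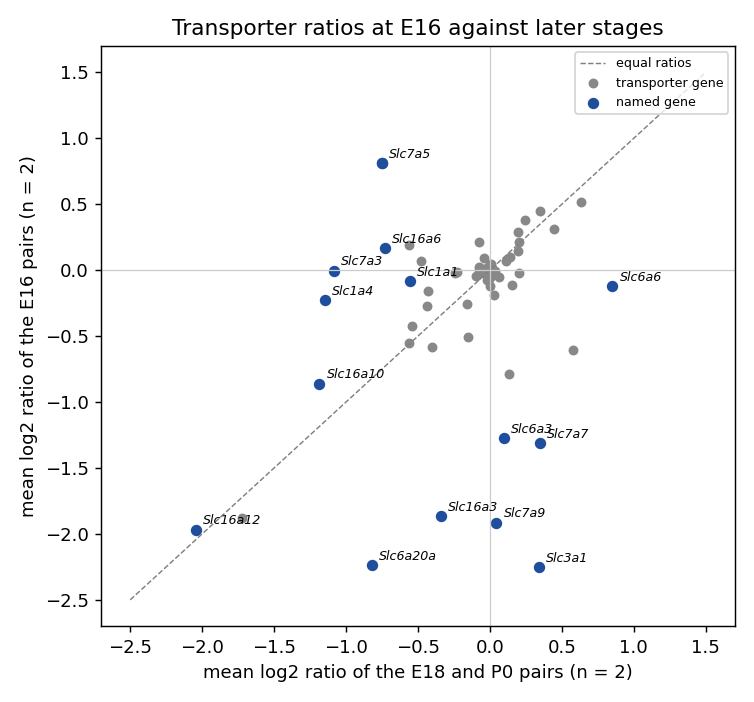
Mean log2 ratio of the 2 E16 pairs (vertical axis) against that of the E18 and P0 pairs (horizontal axis) for the 72 transporters (points), with named genes in blue and a dashed line where both are equal. Slc3a1, Slc7a9, Slc7a7 and Slc6a3 lie low at E16 and near or above 0 later, Slc7a5 lies above 0 at E16 and below 0 later, and Slc16a12 lies near the line.

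Of 21 measured genes of the amino acid response, which the factor ATF4 drives when supply is short, 2 passed lower and 0 higher, where 1.34% of all genes passed lower and 3.02% higher. The median was -0.50, and the means ran from -1.73 to 0.21. Aldh18a1, the enzyme that starts proline and ornithine synthesis from glutamate, had ratios of -1.38 and -1.37 at E16, -1.50 at E18 and -1.60 at P0. Its mean of -1.46 ± 0.11 (SD, n = 4) had a limma adjusted p of 0.00805. Ddit3, a stress transcription factor, had ratios of -1.52 and -1.56 at E16, -1.29 at E18 and -2.21 at P0, with a mean of -1.64 ± 0.39 (SD, n = 4) and a limma adjusted p of 0.0285. All pairs of both genes lay below -1. Of the 21, 9 were below 0 in all 4 pairs (14.4% of all genes were) and 0 above (16.3% of all genes were), and 13 had both E16 pairs above both later pairs, where 24.8% of all genes did. Atf4 itself stood at -0.50 ± 0.43 (SD, n = 4) and did not pass. The serine synthesis enzymes Psat1 and Phgdh had means near 0, at -0.021 and 0.15, and the highest mean was that of Sesn2, a leucine sensor, at 0.21. Both calls were lost in limma without either E16 pair and with the E16 pairs averaged.

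Other steps of amino acid use held 3 calls, all higher, in lists of 9 to 18 genes, where 3.02% of all genes passed higher. Of 15 measured aminoacyl-tRNA synthetases, Wars, which charges tryptophan, was the sole call, higher at 0.79 ± 0.24 (SD, n = 4; limma adjusted p = 0.0424), and the median was 0.018. Of 9 mitochondrial amino acid carriers, the aspartate and glutamate carrier Slc25a13 passed higher at 0.34 ± 0.081 (SD, n = 4; limma adjusted p = 0.0362), and the median was -0.0063. Of 18 mTORC1 and amino acid sensing genes 0 passed in limma, with a median of -0.012. Before adjustment 2 of the 18 had a limma p under 0.05, against 20.9% of all genes. Rragd, a GTPase of the lysosomal sensor, was below 0 in 4 of 4 pairs at -1.42 ± 0.52 (SD, n = 4), with a limma adjusted p of 0.0564. Of the 9 measured proteins that escort or anchor the carriers, Cd44 was the sole call. Wars lost its call in limma with a robust prior, without the P0 pair, without either E16 pair and with the E16 pairs averaged. Slc25a13 lost its call with 1 probe per gene, without each pair in turn and with that averaging, and Cd44 with 1 probe per gene, without either E16 pair and with that averaging. Cltrn, which escorts Slc6a19 and its kin in kidney, had ratios of -1.60 and -0.31 at E16, -0.19 at E18 and -0.27 at P0, so the first E16 pair stood apart.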

How the data were processed

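Ratios of spheroid to organoid RNA from 4 animals were used. The authors deposited 1 value per probe and pair for 38083 probes, read here as a log2 ratio. Its base, its numerator, background correction, normalization and the combining of dye swaps are not given in the sources used. Values up to 7.51 cannot be log10 ratios of a 16-bit scanner. GEO's platform table, which can be old, named 22941 probes, all matched to RefSeq by gene ID. The 22305 named probes with an mM prefix were averaged to 15123 genes, with no filter on low values, so all 72 members were tested. Two-sided tests used lmFit and eBayes of limma 3.58.1 (R 4.3.3), and p-values were adjusted by Benjamini-Hochberg across all genes. The fit was tested on simulated data. Members, classes and lists were chosen with earlier results of these data known. Members named are those past the threshold, all lumen-facing and blood-facing ones, those with a mean over 0.5 in size and the 5 per direction with the largest stage statistics. Slc1a5, Slc7a11, Slc38a2, Slc38a9, Slc15a3, Slc16a1, Slc6a8, Slc16a11, Slc16a13, Slc15a4, Atf4 and Rragd were added after their values were seen. Motifs were chosen after the ratios were seen. Alternatives were other scaling, a robust prior, array weights, 1 probe per gene, averaging the E16 pairs and leaving out each pair.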

Additional observations from a re-analysis of the deposited data

Results flagged for a closer look

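In 1 gene the first E16 pair stood apart from the other 3 by Dixon's criterion for 4 values: Cltrn was at -1.60 there and between -0.31 and -0.19 in the others, a gap of 0.921 of the range. Of the 34 named genes tested, 1 was picked out in this way, and chance picks about 1 in 20 groups.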

How the results depend on the processing

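The count of 3 transporters past the threshold was 3 with columns scaled to one spread (Slc6a4 in place of Slc3a2), with 1 probe per gene and with a robust prior. Of all genes 4.66%, 3.39% and 3.28% passed in these fits. The count changed under other settings. It was 9 with array weights (8 lower and 1 higher, against 9.37% of all genes), adding Slc6a4, Slc6a20a, Slc6a7, Slc7a8, Slc7a15 and, as higher, Slc6a17, and it was 0 in limma with both E16 pairs averaged (0.0264% of all genes passed). Leaving out each pair in turn gave 0 to 3, where 0% to 4.89% of all genes passed. The count of 0 for the stage comparison remained 0 with the other scaling, 1 probe per gene and a robust prior, and ran from 0 to 12 when each pair was left out. The 5 calls among the pathway lists, of 9 to 21 measured genes each, became 11 with array weights. Of all genes 9.37% passed there, against 4.36% in the main fit. The calls became 8 with the other scaling (4.66% of all genes), 0 with both E16 pairs averaged (0.0264%) and 3 with 1 probe per gene (3.39%). They ran from 0 to 6 without each pair in turn, where 0% to 4.89% of all genes passed. Over the 25 named transporters and 9 alternatives each, the 3 called transporters lost the call in 15 of their 27 values and the others gained one in 7 of 198. The sign of the mean turned only in uncalled values, for Slc7a5 under 3 alternatives and Slc6a20b under 1. Each ratio already is the difference within 1 animal, so the test of the mean ratio against 0 is itself the paired comparison. The number of pairs limits the precision, and signal over background is unknown.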
